A study of Mus musculus with 4 samples.

Results

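The genes described here are 10 markers of activated fibroblasts, taken by symbol from the deposited gene table: Pdgfra, Pdgfrb, Acta2, Postn, Fap, Thy1, Vim, Dcn, Lum and Fn1. All 10 have a row among the 52125 rows of the table, and all 10 passed the filter on low values that left 18285 genes for testing. RNA came from the corpus, which is the part of the stomach that secretes acid, of wild-type C57BL/6 mice aged 6 to 8 weeks. The HDT group holds 2 mice sampled 48 hr after a single intraperitoneal injection of HDT at 5 mg per 20 g of body weight, given to damage the tissue. The vehicle group holds 2 mice of the same strain, genotype and age, with 1 mouse per library throughout. The labels give HDT as an abbreviation only, which in work on gastric injury usually stands for high-dose tamoxifen, and they call the controls both vehicle and untreated.

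Fibroblasts are the connective tissue cells that make and remodel the extracellular matrix of the lamina propria, submucosa and muscle wall. After injury they can be driven by platelet-derived growth factor (PDGF) and transforming growth factor beta (TGF-beta) to divide, to secrete fibronectin, periostin and fibrillar collagens, and in part to become contractile myofibroblasts that carry smooth muscle actin. None of the 10 genes is exclusive to fibroblasts. Pdgfrb is also carried by pericytes, Acta2 by smooth muscle and pericytes, Thy1 by T cells and neurons, and Vim by most cells of mesenchymal and blood origin. In RNA from whole tissue, a change in the number of cells of a type and a change in RNA per cell cannot be told apart.

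At 48 hr after HDT, 6 of the 10 markers were higher (Postn, Pdgfra, Fn1, Lum, Pdgfrb and Vim), 4 had no call (Fap, Dcn, Thy1 and Acta2) and 0 were lower. Over all genes tested, 18.4% were called higher and 19.3% lower. The members and the lists below were chosen with earlier results of these data known, so such shares are a description. The calls came from limma with Benjamini-Hochberg adjustment over all tested genes at a threshold of 0.05, and at an unadjusted p under 0.05 limma, edgeR and DESeq2 each also gave 0 members lower. The median log2 fold change was 0.48 over the members and −0.001 over all genes tested. Both HDT libraries lay above both vehicle libraries for 7 members and below them for 1, where 35.3% of all tested genes lay above and 35.5% below. The increases were modest in size, with Postn the largest among the called members at 2.19-fold.

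Levels are CPM, the usual depth-scaled read counts, computed from reads recovered from the deposited values and scaled by the trimmed mean of M-values (TMM). The libraries held between 41536686 and 42674985 recovered reads. Results under a second scaling are given for some genes and lists only. A call, or the lack of one, given under TMM alone can also depend on the scaling. Abundant epithelial transcripts were lower, and the genes of the corpus epithelium list (Atp4a, Atp4b, Gif and Pgc) summed to 41902 and 30945 CPM in HDT, against 153219 and 186742 CPM in vehicle. The values as deposited put the middle of all tested genes at a log2 fold change of 0.526 and made 92% of the calls increases, where TMM made it 48.9%. At that scaling 8 members were called higher, with Dcn and Fap added, where 62.8% of all tested genes were called higher, 5.46% lower and 68.3% in either direction.

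**Figure D1:**
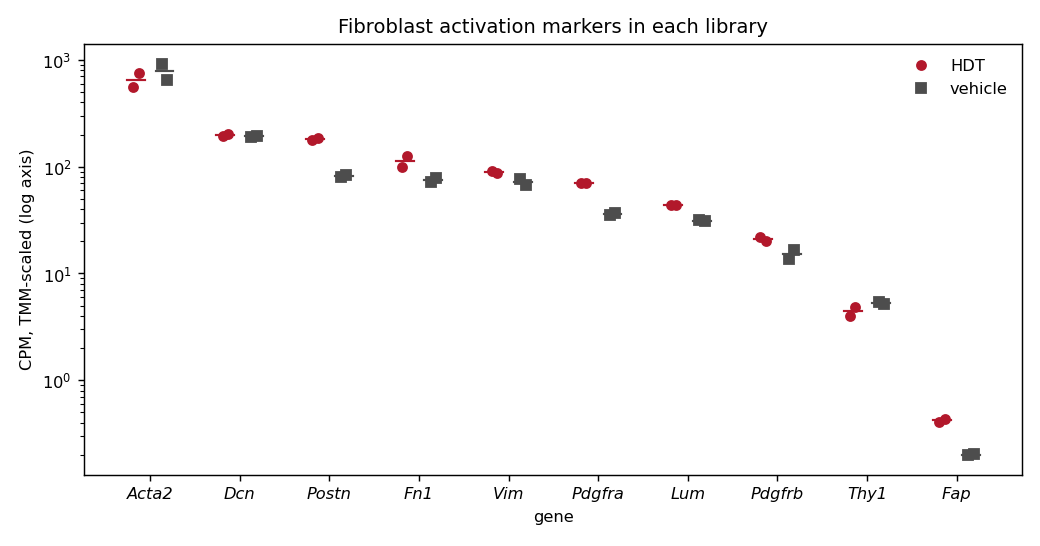
CPM of the 10 markers in each library on a log axis, with HDT as red circles, vehicle as grey squares and a bar at each group's mean of 2 mice. Postn, Pdgfra, Fn1, Vim, Lum, Pdgfrb and Fap have both HDT libraries above both vehicle libraries, Thy1 has both below, and Acta2 and Dcn overlap.

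The PDGF receptors were both higher. Pdgfra encodes the receptor for PDGF-A and PDGF-C dimers and marks most tissue fibroblasts (chromosome 5, 75152292 to 75198215, GRCm38). It had 70.5 and 69.9 CPM in HDT, against 35.5 and 36.7 CPM in vehicle. The replicates of each group lay within a few percent of each other and the groups were far apart. Its log2 fold change was 0.96 (SE 0.0613, limma adjusted p = 2.12e-05), or 1.94-fold with a 95% interval of 1.76 to 2.14. Pdgfrb, the receptor for PDGF-B that fibroblasts share with pericytes, had 22.2 and 20.3 CPM in HDT, against 13.7 and 16.8 CPM in vehicle. The groups did not overlap, although the 2 vehicle libraries differed by almost as much as the nearest HDT and vehicle libraries. Its log2 fold change was 0.48 (SE 0.109, limma adjusted p = 0.0103), and without single libraries it ranged from 0.34 to 0.62. The reads of Pdgfra per read of Pdgfrb, a ratio within a library that no scaling can alter, were 3.18 and 3.45 in HDT, against 2.58 and 2.19 in vehicle. The authors' strand setting is not given in the sources used here, and exons of Pdgfra overlap those of the opposite-strand genes Gm42802 and Gm42803, so reads of these could be counted together.

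Fap and Thy1, the other surface proteins of the list, gave no calls. Fap encodes fibroblast activation protein, a membrane protease scarce in resting tissue and prominent in healing wounds and tumour stroma (chromosome 2, 62500943 to 62574075). It was counted with 21 and 22 reads in HDT, against 7 and 7 reads in vehicle, or 0.408 and 0.436 CPM against 0.199 and 0.203 CPM. The HDT libraries were both higher, but at this depth the gene rests on very few reads. The log2 fold change was 1.00 with a 95% interval of 0.12 to 1.88 (limma adjusted p = 0.0738), and with the values as deposited it was 1.49 and called (limma adjusted p = 0.00786). Thy1, a cell surface glycoprotein of fibroblasts that T cells and neurons also carry (chromosome 9, 44043384 to 44048579), had 4.02 and 4.87 CPM in HDT, against 5.40 and 5.23 CPM in vehicle. Both HDT libraries were lower, and one HDT library lay close to the vehicle pair. The log2 fold change was −0.26 with TMM, with a 95% interval of −0.59 to 0.07 (limma adjusted p = 0.193), and 0.27 with the values as deposited (limma adjusted p = 0.132), so its direction depends on the scaling.

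Of the cytoskeletal markers, the intermediate filament gene Vim was modestly higher and smooth muscle actin was not called. Vim (chromosome 2, 13573927 to 13582826) had 91.3 and 87.9 CPM in HDT, against 76.7 and 67.7 CPM in vehicle. The groups did not overlap, and the nearest HDT and vehicle libraries were about as far apart as the vehicle pair. The log2 fold change was 0.31 (SE 0.0749, limma adjusted p = 0.0125), and the call was lost without vehicle replicate 2 (0.22, limma adjusted p = 0.112). Acta2, the smooth muscle actin gene used as the marker of myofibroblasts (chromosome 19, 34241090 to 34255590), had 552 and 751 CPM in HDT, against 923 and 649 CPM in vehicle. The groups overlapped, and each group held one high and one low library. Its log2 fold change was −0.27 with TMM, with a 95% interval of −1.02 to 0.49 (limma adjusted p = 0.489), and 0.27 with the values as deposited (limma adjusted p = 0.493). The interval runs from 0.494-fold to 1.40-fold, so these 4 libraries leave room for changes of either sign. Actin genes have similar coding sequences, so Acta2 reads are uncertain where the authors' counting could share them with other actins.

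Acta2 levels followed the summed level of the smooth muscle genes from library to library. A list of 10 muscle genes served as markers of the muscle wall, and their summed level was 1551 and 2297 CPM in HDT, against 2550 and 1827 CPM in vehicle. The low libraries, HDT replicate 1 and vehicle replicate 2, were also the low libraries for Acta2. Not every listed gene had this pattern. Myocd, named after its values were seen, had 2.41 and 3.13 CPM in HDT, against 1.79 and 2.50 CPM in vehicle. Lmod1, also named afterwards, had both HDT libraries lower, at 36.7 and 46.6 CPM, against 64.1 and 50.5 CPM in vehicle. Myh11, smooth muscle myosin, had 372 and 515 CPM in HDT, against 549 and 402 CPM in vehicle, and Cnn1, the actin-binding calponin, had 116 and 175 CPM against 188 and 134 CPM. Acta2 had 0.356 and 0.327 reads per read of the summed muscle genes in HDT, against 0.362 and 0.355 in vehicle, so the groups overlapped in this ratio too. Of the 10 muscle genes, 0 were called in either direction with limma, and at an unadjusted p under 0.05 limma gave 0 higher and 1 lower, while DESeq2 called 1 lower after adjustment, as limma did without vehicle replicate 2. The part of muscle content in the Acta2 values was not tested.

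**Figure D2:**
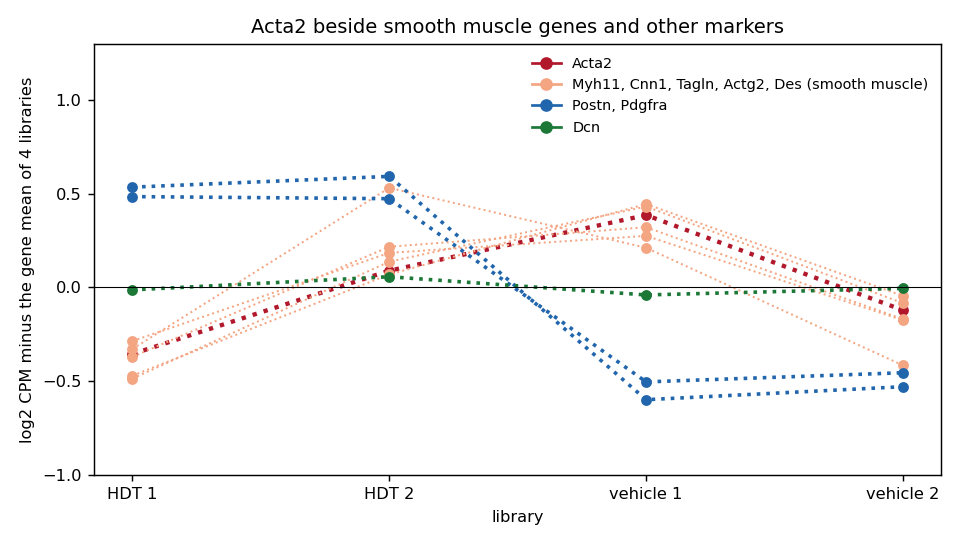
Log2 CPM of each gene minus its own mean over the 4 libraries, for Acta2 in red, 5 smooth muscle genes in orange, Postn and Pdgfra in blue and Dcn in green, with dotted lines joining the values of one gene. Acta2 is low in HDT replicate 1 and vehicle replicate 2, as the 5 muscle genes drawn are, while Postn and Pdgfra divide by group and Dcn stays near 0.

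The RefSeq promoter table of GRCm38.p6 holds windows of 300 bases, from 250 before to 50 after a transcript start, for 4 of the 10 members. These members have 5 windows. The windows of Acta2, with no call, and of Postn and Vim, called higher, are shown because they held motif matches. The window of Pdgfra, called higher, and a second window of Postn (chr3:54359017-54359316) held none of the motifs named here and are not shown. Capitals mark motif matches, namely the TEAD site GGAATG and CArG-like boxes in Acta2 and the TATA box TATAAA in Postn and Vim. A CArG box is the site of serum response factor, and CArG-like here means a box whose 6-base A/T core holds exactly 1 G or C.
Acta2 (chr19:34255324-34255623, minus strand): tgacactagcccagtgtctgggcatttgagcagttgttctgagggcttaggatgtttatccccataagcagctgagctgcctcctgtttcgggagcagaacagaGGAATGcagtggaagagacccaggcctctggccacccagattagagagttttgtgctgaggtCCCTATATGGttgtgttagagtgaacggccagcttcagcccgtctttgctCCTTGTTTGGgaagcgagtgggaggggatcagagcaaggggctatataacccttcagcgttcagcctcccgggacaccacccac
Postn (chr3:54360857-54361156, plus strand): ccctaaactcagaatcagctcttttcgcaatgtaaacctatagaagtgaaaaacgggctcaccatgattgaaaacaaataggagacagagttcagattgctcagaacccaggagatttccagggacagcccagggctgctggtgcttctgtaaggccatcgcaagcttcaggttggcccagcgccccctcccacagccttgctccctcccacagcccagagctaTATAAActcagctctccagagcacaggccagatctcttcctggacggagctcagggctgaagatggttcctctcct
Vim (chr2:13574061-13574360, plus strand): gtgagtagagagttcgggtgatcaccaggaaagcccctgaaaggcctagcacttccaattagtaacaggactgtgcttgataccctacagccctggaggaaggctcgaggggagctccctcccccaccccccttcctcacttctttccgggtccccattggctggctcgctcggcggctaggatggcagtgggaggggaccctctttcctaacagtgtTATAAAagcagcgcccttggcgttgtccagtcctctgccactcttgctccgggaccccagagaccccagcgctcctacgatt
The TEAD site lay at position −146 from the Acta2 start and the 2 CArG-like boxes at −84 and −34, counting the first base of each match. Over all 32851 windows of the same length, searched on both strands, 14.7% held a TEAD site, 8.5% a CArG-like box and 1.63% a strict CArG box. The TATA box, searched on the transcript strand, began at −26 in Postn and −32 in Vim and occurs in 8.32% of all windows. No window of the 4 members held the AP-1 site TGANTCA or the cyclic AMP response element TGACGTCA on either strand, found in 7.81% and 1.79% of all windows. No 2 of these motif definitions share a match in the printed windows. A match describes letters only.

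Among the matrix proteins of the list, the 2 glycoproteins were higher. Postn encodes periostin, a secreted protein that binds integrins and promotes collagen crosslinking (chromosome 3, 54361109 to 54391037). It had 176 and 184 CPM in HDT, against 80.4 and 84.3 CPM in vehicle. The replicates were close and the groups far apart. The log2 fold change was 1.13 (SE 0.0617, limma adjusted p = 1.08e-05), and 3.94% of all tested genes had a larger one. Fn1 encodes fibronectin, the scaffold on which cells assemble other matrix (chromosome 1, 71585520 to 71653200). It had 99.7 and 127 CPM in HDT, against 72.0 and 77.6 CPM in vehicle. Both HDT libraries were higher, and they differed from each other by more than the vehicle pair did. The log2 fold change was 0.59 (SE 0.117, limma adjusted p = 0.00934) and ranged from 0.43 to 0.77 without single libraries. Exons of Fn1 overlap those of the opposite-strand gene Apol7d, whose reads could be counted with it.

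The 2 small leucine-rich proteoglycans of the list differed. These proteins bind collagen fibrils and set their spacing. Lum, lumican (chromosome 10, 97565128 to 97572703), had 43.3 and 43.8 CPM in HDT, against 31.5 and 31.0 CPM in vehicle. The replicates nearly coincided and the groups were separate, with a log2 fold change of 0.48 (SE 0.0630, limma adjusted p = 0.000722). Dcn, decorin, whose gene lies near Lum (chromosome 10, 97479609 to 97518143), had 193 and 203 CPM in HDT, against 190 and 194 CPM in vehicle. The groups overlapped and all 4 libraries were within a narrow range. Its log2 fold change was 0.04 with a 95% interval of −0.10 to 0.19 (limma adjusted p = 0.604), an interval of 0.935-fold to 1.14-fold. With the values as deposited it was 0.58 and called (limma adjusted p = 2.28e-05), close to the 0.526 by which that scaling moved the median gene. A further 3 genes of this protein class stood in the matrix list described below and were singled out after their values were seen. Bgn, biglycan, was higher, at 381 and 353 CPM in HDT, against 172 and 179 CPM in vehicle (limma adjusted p = 1.87e-05). Fmod, fibromodulin, had 2.26 and 2.67 CPM in HDT, against 1.85 and 1.89 CPM in vehicle, and Ogn, osteoglycin, had 103 and 108 CPM against 116 and 124 CPM, both without a call (limma adjusted p = 0.13 and adjusted p = 0.057). With the values as deposited both were called higher, with log2 fold changes of 0.92 for Fmod and 0.35 for Ogn, against 0.39 and −0.18 with TMM.

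**Figure D3:**
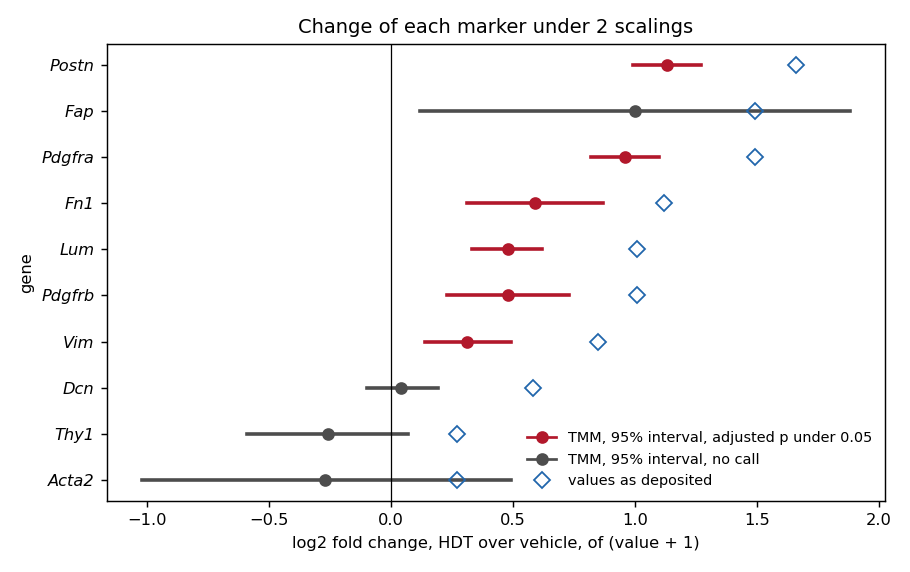
Log2 fold change of HDT over vehicle for each marker, on the scale of value + 1, with filled circles for TMM scaling, bars for 95% intervals and open diamonds for the values as deposited. Red marks the 6 markers called higher with TMM, and Acta2 and Thy1 change sign between the scalings.

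Levels of different genes are compared here only per kilobase of annotated exon, as CPM per kb. Acta2 was the highest of the 10 in every library, at 251 and 342 CPM per kb in HDT, against 420 and 296 CPM per kb in vehicle. Dcn came next, at 33.1 and 34.7 CPM per kb in HDT, against 32.5 and 33.3 CPM per kb in vehicle. Postn was the third in both HDT libraries, at 20.3 and 21.1 CPM per kb, against the fifth in both vehicle libraries, at 9.23 and 9.69 CPM per kb. In HDT its neighbours Vim, at 19.3 and 18.5 CPM per kb, and Lum, at 17.7 and 17.9 CPM per kb, were close below it. In vehicle, Vim was at 16.2 and 14.3 CPM per kb and Lum at 12.9 and 12.7 CPM per kb, both above Postn. The order of the other 5 was the same in all 4 libraries, running from Fn1 through Pdgfra, Pdgfrb and Thy1 to Fap, the lowest, at 0.0721 and 0.0770 CPM per kb in HDT, against 0.0351 and 0.0359 CPM per kb in vehicle.

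Ratios of reads between markers within a library do not depend on the scaling of libraries. Of the 45 pairs of markers, the ratio separated the groups in 38 and overlapped in 7. For single genes, CPM separated the groups in 70.8% of those tested, which is not a share for ratios of pairs. The pairs are built from the same 10 genes and so are not independent, and the ratios with Fap rest on at most 22 Fap reads per library. With 2 against 2 libraries an exact permutation test cannot give a two-sided p below 0.333, so these ratios are a description. Reads of Postn per read of Dcn were 0.914 and 0.906 in HDT, against 0.424 and 0.434 in vehicle. Pdgfra had 0.365 and 0.345 reads per read of Dcn in HDT, against 0.187 and 0.189 in vehicle. The balance of the 2 proteoglycans also shifted, with 4.46 and 4.63 reads of Dcn per read of Lum in HDT, against 6.02 and 6.26 in vehicle. Acta2 had 3.13 and 4.09 reads per read of Postn in HDT, against 11.5 and 7.70 in vehicle, with separate groups despite the spread of Acta2. Postn and Fap kept the narrowest separated ratio, with log2 means that differed by 0.06. The pairs that overlapped were Pdgfrb with Vim, Lum and Fn1, Acta2 with Thy1 and Dcn, and Fn1 with Vim and Lum.

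**Figure D4:**
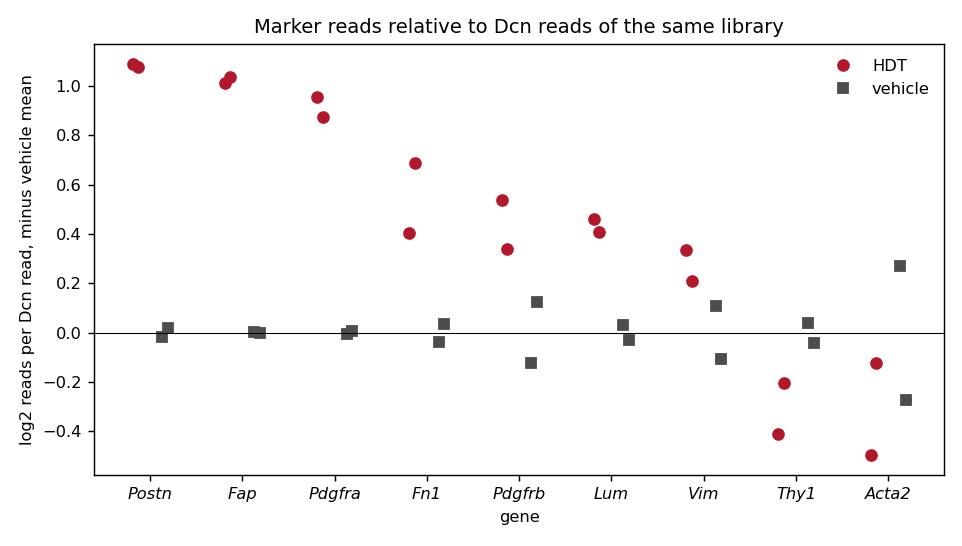
Log2 reads of each marker per read of Dcn in the same library, minus the vehicle mean, with HDT as red circles and vehicle as grey squares. Postn, Fap and Pdgfra lie about 1 log2 unit above the vehicle libraries, Fn1, Pdgfrb, Lum and Vim lie above by less, Thy1 lies below, and Acta2 overlaps.

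The collagens and crosslinking enzymes that activated fibroblasts secrete were higher with few exceptions. Of 25 listed genes, all of them tested, 20 were higher, 0 were lower and 5 had no call (Fmod, Thbs2, Ogn, Cthrc1 and Ctgf), beside 18.4% of all tested genes called higher. This list was written with earlier results of these data known, so its share is not a test. The median log2 fold change was 0.85, and limma gave 2 lower at an unadjusted p under 0.05, edgeR 2 and DESeq2 1. Summed over the list, the level was 3598 and 3898 CPM in HDT, against 1852 and 1855 CPM in vehicle. The largest change was that of Col6a3, a chain of the microfibril-forming collagen VI, at 60.7 and 71.0 CPM in HDT, against 15.99 and 17.1 CPM in vehicle (log2 fold change 1.99). Col1a1, the main chain of fibrillar collagen I, had 515 and 624 CPM in HDT, against 197 and 199.9 CPM in vehicle (1.51). The log2 fold changes were 1.50 for Col5a1 and 1.36 for Col5a2, chains of the fibril-nucleating collagen V, and 1.37 for Col6a2. All 5 were larger than the 1.13 of Postn. Ctgf, a matricellular target of TGF-beta and YAP named here after its values were seen, had a log2 fold change of −0.31 without a call (limma adjusted p = 0.0746), and it was called lower without vehicle replicate 2 (−0.47, limma adjusted p = 0.0174). With the values as deposited the log2 fold change of Ctgf was 0.22.

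**Figure D5:**
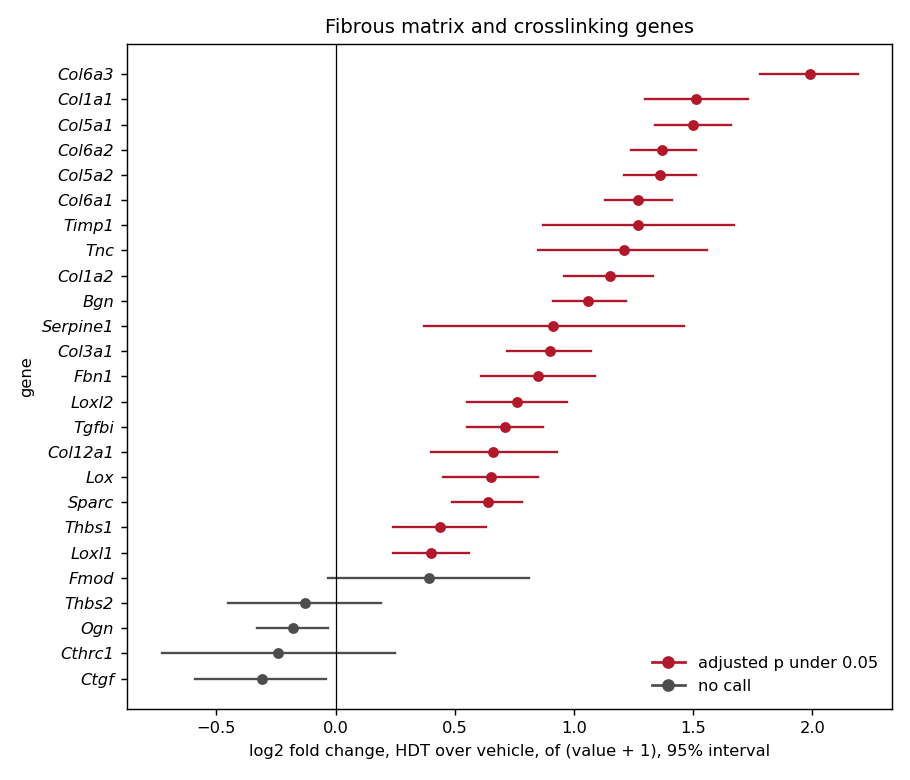
Log2 fold change of HDT over vehicle for 25 fibrous matrix and crosslinking genes, on the scale of value + 1, with 95% intervals. The 20 genes in red were called higher, led by Col6a3 at 1.99, and the 5 in grey had no call.

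Among the ligands and receptors upstream of the markers, 1 of 13 listed genes was higher, 3 were lower and 9 had no call. Over all tested genes 18.4% were higher and 19.3% lower, so the list lay near the background, with a median log2 fold change of −0.03. Tgfb1, the TGF-beta ligand most tied to fibrosis, was higher, at 20.0 and 19.4 CPM in HDT, against 13.8 and 13.8 CPM in vehicle (log2 fold change 0.51, limma adjusted p = 0.00156). Tgfb3, another ligand of the same receptors, was lower, at 5.62 and 5.67 CPM in HDT, against 9.09 and 9.99 CPM in vehicle (limma adjusted p = 0.00133). The PDGF ligand gene Pdgfa, whose product binds Pdgfra, was lower, at 24.9 and 23.4 CPM in HDT, against 35.1 and 36.8 CPM in vehicle (limma adjusted p = 0.000574). Pdgfd, whose product binds Pdgfrb, had 11.9 and 10.5 CPM in HDT, against 14.2 and 14.5 CPM in vehicle, with a log2 fold change of −0.35 that was 0.18 with the values as deposited. Its call (limma adjusted p = 0.0235) was lost without HDT replicate 2 (−0.24, adjusted p = 0.126), without vehicle replicate 1 (−0.37, adjusted p = 0.063) and without vehicle replicate 2 (−0.34, adjusted p = 0.0837). Log2 fold changes with the values as deposited were −0.22 for Tgfb3 and −0.04 for Pdgfa, neither called, and at that scaling 9 of the 13 genes were called higher and 0 lower.

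Of 8 listed markers of resident fibroblasts, 2 were higher, 3 lower and 3 had no call, beside 18.4% higher and 19.3% lower over all tested genes, with a median log2 fold change of 0.08 and summed levels of 216 and 207 CPM in HDT, against 179 and 175 CPM in vehicle. Clec3b, tetranectin, was lower, at 6.92 and 7.81 CPM in HDT, against 15.8 and 14.0 CPM in vehicle (limma adjusted p = 0.000296, log2 fold change −1.01, and −0.48 with the values as deposited). Dpt, dermatopontin, was lower at 42.6 and 45.8 CPM in HDT, against 60.9 and 60.0 CPM in vehicle (limma adjusted p = 0.00118, log2 fold change −0.45), but its log2 fold change was 0.08 with the values as deposited. Col15a1, a basement membrane collagen, was higher at 111 and 88.2 CPM in HDT, against 48.3 and 50.7 CPM in vehicle (limma adjusted p = 0.000568). Pi16, an adventitial marker, had 4.37 and 9.67 CPM in HDT, against 6.25 and 5.31 CPM in vehicle, with overlapping groups. With the values as deposited, 4 of the 8 were called higher and 1 lower.

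Other cell types that carry the markers moved with the groups in part, and their part in the marker values was not tested. Macrophages, which carry Vim and Fn1, had 9 of 10 listed genes higher and 0 lower with limma, also at an unadjusted p under 0.05 and with edgeR, and 7 higher with DESeq2. Over all tested genes limma called 18.4% higher and 19.3% lower. Of the macrophage genes not described below, Fcgr1 and Mertk lost their calls without some single libraries. The summed level of the macrophage list was 452 and 373 CPM in HDT, against 201 and 212 CPM in vehicle. The lysosomal protein gene Cd68 had 37.0 and 39.2 CPM in HDT, against 11.1 and 9.67 CPM in vehicle, and the lysozyme gene Lyz2 had 209 and 146 CPM against 60.9 and 69.0 CPM. Csf1r, the receptor for macrophage growth factor, had 36.1 and 31.1 CPM in HDT, against 26.8 and 29.0 CPM in vehicle, and Adgre1, the F4/80 antigen, had 10.4 and 8.96 CPM against 8.18 and 8.62 CPM without a call. The call of Lyz2 was lost without vehicle replicate 1 (limma adjusted p = 0.0527), and that of Csf1r (adjusted p = 0.0486) without HDT replicate 1 (adjusted p = 0.202), vehicle replicate 1 (adjusted p = 0.202) or vehicle replicate 2 (adjusted p = 0.0557).

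T cells, which carry Thy1, were near the limit of detection. Cd3e, a subunit of the T cell receptor complex, had 4 and 8 reads in HDT, against 8 and 5 reads in vehicle. Cd3d, another subunit, had 2 and 4 reads in HDT, against 5 and 2 reads in vehicle, and 4 of the 9 listed genes were tested. Of these, 2 were higher, beside 18.4% of all tested genes, and Cd2 and Lck had no call. Cd4 had 8.69 and 6.60 CPM in HDT, against 3.35 and 3.34 CPM in vehicle (limma adjusted p = 0.000836). Cd247, whose exons overlap those of Pou2f1 on the opposite strand, had 7.12 and 6.64 CPM in HDT, against 4.09 and 4.96 CPM in vehicle (limma adjusted p = 0.0111, and adjusted p = 0.0579 without vehicle replicate 1). The summed level of the list was 17.0 and 14.8 CPM in HDT, against 9.06 and 9.64 CPM in vehicle, most of it from those 2 genes.

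Of 6 tested pericyte markers, 1 was higher, 2 were lower and 3 had no call, beside 18.4% higher and 19.3% lower over all tested genes. With the values as deposited, 3 were called higher and 0 lower. The summed level was 218 and 238 CPM in HDT, against 304 and 252 CPM in vehicle. Rgs5, a signalling regulator of mural cells, had 130 and 132 CPM in HDT, against 195 and 159 CPM in vehicle, with a log2 fold change of −0.43 that was 0.10 with the values as deposited. Its call (limma adjusted p = 0.0113) was lost without HDT replicate 1 (adjusted p = 0.144), HDT replicate 2 (adjusted p = 0.132) or vehicle replicate 1 (adjusted p = 0.0613), and the count of lower pericyte genes was then 0, 1 and 0. Notch3, a receptor of mural cells, was higher at 8.87 and 8.88 CPM in HDT, against 5.31 and 6.21 CPM in vehicle (limma adjusted p = 0.00501). Cspg4, the NG2 proteoglycan, had 9.57 and 12.2 CPM in HDT, against 9.86 and 7.37 CPM in vehicle, without a call.

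Endothelial genes, from cells that carry Vim, summed to 168 and 149 CPM in HDT, against 149 and 174 CPM in vehicle, and 0 of 10 were higher and 4 lower with limma, while 2 were higher at an unadjusted p under 0.05 and edgeR and DESeq2 called 0 higher. Over all tested genes 18.4% were called higher, 19.3% lower and 37.7% in either direction. With the values as deposited 6 were called higher and 0 lower, and without HDT replicate 2 the counts were 1 higher and 1 lower, and without vehicle replicate 2 they were 2 and 2. The junction genes Pecam1 and Cdh5 had no call with TMM. With the values as deposited both were called higher, with log2 fold changes of 0.79 and 0.86. Pecam1 had 46.6 and 41.5 CPM in HDT, against 33.5 and 40.2 CPM in vehicle, and Cdh5 had 22.1 and 20.4 CPM in HDT, against 15.0 and 19.2 CPM in vehicle. The largest falls were those of Cldn5 and the VEGF receptor gene Kdr. Cldn5 had 1.15 and 1.25 CPM in HDT, against 1.68 and 3.08 CPM in vehicle, a log2 fold change of −0.91 (limma adjusted p = 0.0417), with −0.48 and no call without vehicle replicate 2 (adjusted p = 0.239) and no call without HDT replicate 1 (adjusted p = 0.143) or HDT replicate 2 (adjusted p = 0.0977). Kdr had 23.0 and 19.7 CPM in HDT, against 30.7 and 35.8 CPM in vehicle (limma adjusted p = 0.00235). With the values as deposited, log2 fold changes were −0.39 for Cldn5 and −0.11 for Kdr, neither called.

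Mesothelial genes, of the outer lining of the stomach, were lower in 4 of 5 tested and higher in 0. Over all tested genes 19.3% were lower and 18.4% higher. The mesothelial counts were the same with limma at an unadjusted p under 0.05 and with edgeR and DESeq2. The tested gene without a call, Msln, had 3.50 and 3.67 CPM in HDT, against 3.44 and 3.25 CPM in vehicle. With the values as deposited Msln was called higher (log2 fold change 0.63, limma adjusted p = 0.00529). The list summed to 5.37 and 6.62 CPM in HDT, against 15.7 and 10.9 CPM in vehicle. The uroplakin gene Upk3b had 0.972 and 1.25 CPM in HDT, against 6.02 and 3.80 CPM in vehicle, and Upk1b had 0.389 and 0.713 CPM in HDT, against 1.62 and 1.34 CPM in vehicle, with separate groups for both. The transcription factor gene Wt1 had a log2 fold change of −2.65 (limma adjusted p = 0.0280), and its call was lost without HDT replicate 1 (−1.79, adjusted p = 0.0767) or vehicle replicate 1 (−1.97, adjusted p = 0.0878). Enteric neuron and glia genes, from cells that include carriers of Thy1 and Vim, gave 1 higher, 1 lower and 7 without a call of 9. That is 11.1% in each direction, beside 18.4% higher and 19.3% lower over all tested genes. They summed to 26.4 and 31.7 CPM in HDT, against 40.9 and 33.4 CPM in vehicle. Sox10, a transcription factor gene of glia, had no call, at 2.39 and 2.10 CPM in HDT, against 3.29 and 2.26 CPM in vehicle. Gfap, an intermediate filament gene of glia, had 2.66 and 3.05 CPM in HDT, against 1.76 and 1.60 CPM in vehicle, and lost its call (limma adjusted p = 0.0126) without HDT replicate 2 (adjusted p = 0.0612), while without that library 3 genes of the list were lower and without vehicle replicate 2 there were 2. Ret, a receptor of enteric neurons, was lower at 4.90 and 6.06 CPM in HDT, against 8.69 and 8.07 CPM in vehicle (limma adjusted p = 0.00918), and its log2 fold change was −0.62, or −0.09 with the values as deposited.

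The tissue label was checked with markers of the corpus and of neighbouring regions. The proton pump subunit genes of acid-secreting parietal cells were abundant in every library and lower in HDT, as were all 4 genes of the list. Atp4a had 1109 and 879.8 CPM in HDT, against 6782 and 7649 CPM in vehicle, and Atp4b had 563 and 494 CPM in HDT, against 4723 and 4974 CPM in vehicle. Gif lost its call without HDT replicate 2 (limma adjusted p = 0.0579). Genes of the antrum and forestomach were near absent, with Gast, the gastrin gene of the antrum, at 0.0389 and 0.0198 CPM in HDT, against 0 and 0 CPM in vehicle, and Krt5, a keratin of the squamous forestomach, at 0.544 and 0.476 CPM in HDT, against 0.170 and 0.377 CPM in vehicle. Of the 2 tested genes of that list, 0 were called in either direction with limma, also at an unadjusted p under 0.05, and edgeR gave 1 lower before adjustment.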

How the data were processed

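Total RNA from 4 stomach corpus samples was sequenced at BGI, per the labels. The submitters' processing notes name the builds GRCm38 and mm10 and the tools edgeR, Subread 2.0.0, featureCounts and STAR 2.7.1a. The sources used here do not give the annotation, the strand setting or how values were normalized. The authors deposited 1 table of normalized gene signal, in which each value is a whole number of reads times 1 factor per library. Dividing by that factor gave whole reads for 100% of values above 0, within 0.01 of the deposited value.

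Genes were kept by filterByExpr of edgeR 4.0.16 on the recovered reads. The deposited values were scaled by TMM and analysed as log2(value + 1) with limma 3.58.1 (trend, robust, group as the only term), two-sided, in R 4.3.3. On this scale, fold changes of low genes come out too small. The TMM factors were 1.219 and 1.183 for HDT and 0.848 and 0.818 for vehicle. The prior degrees of freedom (median 5.87) show that much of the spread is borrowed across genes. Replicates of each pair differed by more than sampling noise. Gene positions and exon lengths are from GENCODE M21 (GRCm38). The fit was also run on simulated counts with changes in randomly chosen genes. Those counts were not built with the fall in abundant epithelial transcripts, so that run does not test the scaling. edgeR and DESeq2 1.42.0 on recovered reads, other scalings, filters and pseudocounts, a replicate block and leaving out each library were alternatives.

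All 10 members are named. Of the matrix list, the 5 called genes with the largest change are named, of the ligand list every called gene, and of each cell type list its first 2 genes and the 2 called genes with the largest change. A gene that this rule names is not reported here. The members and lists were chosen with earlier results of these data known.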

Additional observations from a re-analysis of the deposited data

How the results depend on the processing

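The count of members called higher was 6 under the other scalings, filters, pseudocounts and tests, except 8 with the values as deposited, and it ranged from 5 to 6 without single libraries, while the count lower stayed at 0 (0 to 0 without single libraries). With the values as deposited, Acta2 and Thy1 reversed to a log2 fold change of 0.27 each, and the calls over all genes numbered 12481 against 6889 with TMM. This follows from that scaling, which moves all genes by a common amount. At that scaling 23 matrix, 10 macrophage, 1 smooth muscle and 1 antrum and forestomach gene were called higher, beside 62.8% of all tested genes. Without single libraries, the calls over all genes ranged from 5152 to 6040, matrix genes called higher from 19 to 20 and matrix genes called lower from 0 to 1. With DESeq2 size factors 1 matrix gene, Ogn, was called lower (limma adjusted p = 0.0493, against 0.0570 with TMM), at a log2 fold change of −0.18 under both. With the values as deposited Ogn was called higher (0.35, limma adjusted p = 0.000666). The labels do not say that replicate numbers pair mice. With the replicate block 6 members and 20 matrix genes were higher, and 4982 genes were called. The differences between replicates correlated at −0.142 across genes between HDT and vehicle. A crossed replicate block, added after seeing the data, paired HDT replicate 1 with vehicle replicate 2 and HDT replicate 2 with vehicle replicate 1. The labels give no such pairing, and it joins the 2 libraries that were low for Acta2. The block so removes spread that left Acta2 without a call, and its lower calls cannot be taken as support. It called 6 members higher and 1 lower (Acta2), 1 smooth muscle gene higher and 6 lower, 20 matrix genes higher and 2 lower, and 8525 genes in all. Fap rests on at most 22 reads per library.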
